A study of Rattus norvegicus with 6 samples.

Results

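The genes described here are 9 regulators and targets of the hormone-sensing luminal program of the mammary gland, namely Esr1, Foxa1, Gata3, Tfap2c, Spdef, Xbp1, Greb1, Mlph and Agr2. They were chosen by symbol from the 30562 rows of a deposited read count table, by a rule that uses no measured value, although earlier results of these data were known. All 9 were found, and 8 of them, all but Agr2, had enough counts to be tested for a difference between older and younger tumors. The table covers bulk RNA-seq of 6 mammary tumors from female F344 rats, an inbred Fischer strain, with 1 library per tumor. Tumors 102, 107 and 116 came from older rats, obtained from a National Institute on Aging colony at 19 to 21 months of age, and tumors 157, 158 and 167 from younger rats, bought from a vendor at 6 to 8 weeks of age. Every rat, in both groups, carried a 50 mg pellet that released medroxyprogesterone acetate (MPA, a synthetic progestin) over 90 days and received DMBA, a carcinogen, once by gavage at 65 mg per kg. The comparison therefore asks how the luminal genes differ with the age of the host among carcinogen-induced tumors of rats given a progestin pellet. Age was fully aligned with the source of the rats, so age and source cannot be told apart here. The authors call the vendor rats virgin and do not give this for the colony rats. No untreated gland was analysed here. The 3 older tumors were those with enough tissue for sequencing.

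Estrogen receptor alpha, encoded by Esr1, is a nuclear receptor that binds DNA once it has bound estrogen. In luminal cells and in hormone receptor-positive breast cancer it works with FOXA1, a pioneer factor that opens chromatin at its sites, and with GATA3, which directs luminal differentiation and takes part in a positive loop with the receptor. AP-2 gamma (Tfap2c) occupies many of the same enhancers, SPDEF is an ETS factor of luminal and secretory epithelium, and XBP1 is the transcription factor of the unfolded protein response whose gene is also estrogen-responsive. GREB1 is a receptor target and cofactor, melanophilin (Mlph) links RAB27-coated vesicles to myosin and is a luminal marker in human breast cancer, and AGR2 is a protein disulfide isomerase of secretory cells.

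Levels are given in CPM, the read count as a share of a library total that was scaled with edgeR's TMM factors, multiplied up to a common round total. CPM is not corrected for gene length, so it was used to compare tumors within a gene and not 1 gene with another. Library totals ran from 3508571 to 6525830 counts, and 3 counts, taken as the floor of detection, correspond on this scale to between 0.516 CPM (tumor 157) and 0.990 CPM (tumor 102, the shallowest library). This floor covers counting error only. A difference between ages is given as a log2 fold change, older minus younger, with its standard error (SE) and p from edgeR's quasi-likelihood test, adjusted over all 14060 genes tested. In that test 0 of the 14060 genes (0%) passed an adjusted p of 0.05, while 1202 had an unadjusted p under 0.05. The p-values measure the spread between these tumors, and in bulk tissue fewer cells of a type and less RNA per cell cannot be told apart. The tissue label was checked on 9 epithelial markers (among them Epcam, Krt8 and Krt18), all detected, whose summed level was 1707 to 1923 CPM in older and 2274 to 2409 CPM in younger tumors.

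RefSeq promoter sequences of assembly GRCr8 were matched by symbol for 5 of the 9 genes. Those of the receptor and of 3 transcription factors are shown, each the 250 bases upstream of the annotated start, 5′ to 3′ on the gene's own strand, because the results below turn on these genes. Capitals mark matches to simple motifs of the factors described here, all searched on both strands.
Esr1 (chr1:43641845-43642094, plus strand): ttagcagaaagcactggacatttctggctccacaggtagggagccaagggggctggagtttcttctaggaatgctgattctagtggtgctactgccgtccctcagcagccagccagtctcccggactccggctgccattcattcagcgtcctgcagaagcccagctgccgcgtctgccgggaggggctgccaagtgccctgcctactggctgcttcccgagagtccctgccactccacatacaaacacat
Gata3 (chr17:73553298-73553547, plus strand): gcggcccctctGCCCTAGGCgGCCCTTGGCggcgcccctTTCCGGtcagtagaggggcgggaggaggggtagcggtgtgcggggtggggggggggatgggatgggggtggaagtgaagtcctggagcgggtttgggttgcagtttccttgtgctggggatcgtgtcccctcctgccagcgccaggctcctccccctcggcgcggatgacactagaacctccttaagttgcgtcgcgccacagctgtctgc
Spdef (chr20:5787686-5787935, minus strand): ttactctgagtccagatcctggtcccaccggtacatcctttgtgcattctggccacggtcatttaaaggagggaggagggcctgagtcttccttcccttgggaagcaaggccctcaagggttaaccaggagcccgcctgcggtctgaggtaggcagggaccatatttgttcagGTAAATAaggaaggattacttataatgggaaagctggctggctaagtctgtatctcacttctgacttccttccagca
Xbp1 (chr14:84604373-84604622, plus strand): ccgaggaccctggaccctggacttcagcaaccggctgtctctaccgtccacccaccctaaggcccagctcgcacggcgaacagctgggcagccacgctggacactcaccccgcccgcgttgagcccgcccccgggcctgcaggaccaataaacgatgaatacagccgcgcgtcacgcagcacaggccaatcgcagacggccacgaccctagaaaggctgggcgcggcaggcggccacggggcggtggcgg

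The Gata3 window held 2 matches to the AP-2 motif GCCNNNGGC, at 239 and 229 bases upstream, and 1 to the ETS motif CCGGAA, on the opposite strand at 211 bases upstream. The Spdef window held 1 match to the forkhead motif TATTTAC, on the opposite strand at 77 bases upstream. This last motif was added once the promoters had been read, after the more usual forkhead motif TGTTTAC had given no match in any of the 5 windows. Among the 33469 RefSeq promoters of the same length, 12.6% held the AP-2 motif, 12.6% the ETS motif, 3.04% TATTTAC and 3.21% TGTTTAC. The other motifs searched had no match in the 5 windows. They were the palindromic consensus estrogen response element (in 0.0239% of all promoters), its single arm AGGTCA (14.1%), the GATA motif AGATAA (10.3%) and the XBP1 motif TGACGTG (1.54%). The matches describe letters in these windows only, and Esr1 is transcribed from several starts of which 1 is shown.

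Esr1 was detected in every tumor, and its level varied more within the older group than between the groups. It was at 4.29 CPM in tumor 102, 57.5 CPM in tumor 107 and 24.4 CPM in tumor 116 among the older tumors, and at 32.8 CPM in tumor 157, 19.5 CPM in tumor 158 and 42.5 CPM in tumor 167 among the younger. The lowest and the highest receptor levels of the series were thus both in older tumors, with the 3 younger tumors in between, and the highest was 13.4-fold above the lowest. Tumor 102 had 13 reads for Esr1 and tumor 107 had 262. The means were 28.7 ± 26.9 CPM (SD, n = 3) in older and 31.6 ± 11.5 CPM (SD, n = 3) in younger tumors. Esr1 had a log2 fold change of -0.13 (SE 0.75, 95% interval -1.87 to 1.61, edgeR adjusted p = 0.983), so these libraries did not resolve a difference in either direction. The sign depended on single tumors, since the log2 fold change was 0.37 without tumor 102 and 0.14 without tumor 167.

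**Figure D1:**
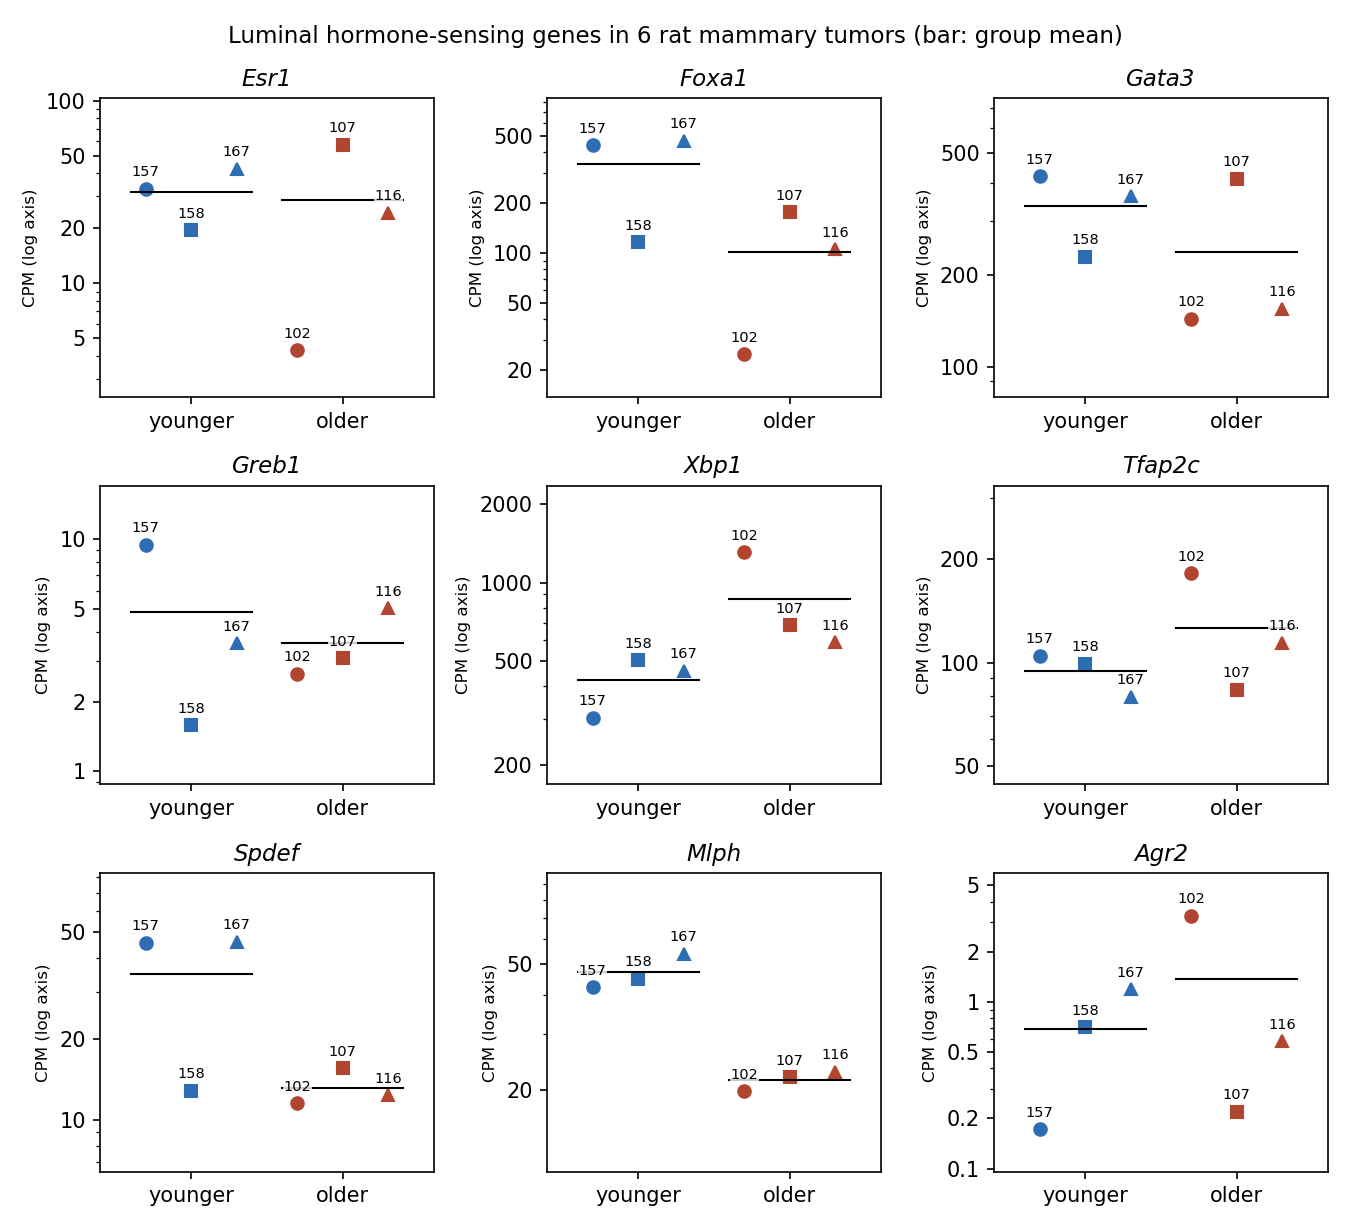
Level of each of the 9 luminal genes in CPM (log axis) in the 3 younger and 3 older tumors, with points labelled by tumor and bars at the group means. Esr1 spans 4.29 to 57.5 CPM within the older tumors, Mlph separates the ages without overlap, and Foxa1 and Spdef are highest in tumors 157 and 167.

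Foxa1 varied more across the tumors than any other luminal gene tested, by the standard deviation (SD) of its log2 CPM. Its levels were 24.7, 175 and 105 CPM in older tumors 102, 107 and 116, and 443, 116 and 470 CPM in younger tumors 157, 158 and 167. Tumors 157 and 167 stood above all others, while younger tumor 158 lay among the older tumors, so the groups overlapped through that tumor. The means were 102 ± 75.1 CPM (SD, n = 3) in older and 343 ± 197 CPM (SD, n = 3) in younger tumors. For Foxa1 the log2 fold change was -1.75 (SE 0.75, 95% interval -3.48 to -0.020), with an unadjusted p of 0.048 and an adjusted p of 0.577 by edgeR. Across the 6 tumors the SD of log2 CPM was larger for Foxa1 than for 97.1% of all genes tested, and for Esr1 it was larger than for 93.4%.

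Gata3 followed a similar order with a smaller range. It was at 144, 412 and 155 CPM in older tumors 102, 107 and 116 and at 419, 229 and 361 CPM in younger tumors 157, 158 and 167. Older tumor 107 was level with younger tumor 157, while the other two older tumors lay below every younger tumor. This gave a log2 fold change of -0.50 (SE 0.46, edgeR adjusted p = 0.871). Leaving out each tumor in turn, it ran from -1.17 without tumor 107 to -0.25 without tumor 102. Gata3 is also used by T cells, and 7 T cell markers summed to 22.4 to 138 CPM in older and 10.7 to 17.2 CPM in younger tumors, with the highest sum in tumor 107 (3 of the 7 could be tested, all 3 higher in older tumors by sign). Most of the sum in tumor 107 came from Cd8a, at 72.0 CPM, and Lck, at 54.4 CPM. Cd2 was also highest there, at 5.27 CPM. The CD3 chain genes Cd3e, Cd3d and Cd3g were instead highest in tumor 116, at 5.03, 1.35 and 2.90 CPM, and Cd5 was highest in tumor 167. The markers thus did not share a peak in tumor 107. The part of T cells in the Gata3 level was not tested.

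Spdef split the tumors in the same places as Foxa1. Its levels were 11.5, 15.6 and 12.4 CPM in older tumors 102, 107 and 116, against 45.6, 12.8 and 46.1 CPM in younger tumors 157, 158 and 167. Tumors 157 and 167 stood above all others, the highest tumor being 3.99-fold above the lowest, and younger tumor 158 sat within the older range. The means were 13.2 ± 2.13 CPM (SD, n = 3) in older and 34.8 ± 19.0 CPM (SD, n = 3) in younger tumors. Spdef had a log2 fold change of -1.40 (SE 0.49, 95% interval -2.53 to -0.26), with an unadjusted p of 0.0223 and an adjusted p of 0.458 by edgeR.

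Tfap2c was the least variable of the 8 genes tested, with 182, 83.4 and 114 CPM in older tumors 102, 107 and 116 and 105, 99.2 and 79.6 CPM in younger tumors 157, 158 and 167. Only tumor 102 stood apart, above all others, and the groups overlapped. Its log2 fold change was 0.42 (SE 0.32, edgeR adjusted p = 0.825) and was 0.061 without tumor 102. The tumor with the lowest Esr1, Foxa1 and Gata3 levels therefore had the highest Tfap2c level.

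Xbp1 had a higher mean level in older tumors, as did Tfap2c, and its groups did not overlap. It was at 1309, 686 and 591 CPM in older tumors 102, 107 and 116 and at 302, 502 and 459 CPM in younger tumors 157, 158 and 167. Every older tumor was above every younger tumor, and tumor 102 was again the highest. The mean of 862 ± 390 CPM (SD, n = 3) in older tumors was 2.05-fold higher than the 421 ± 105 CPM (SD, n = 3) of younger tumors. For Xbp1 the log2 fold change was 1.03 (SE 0.39, 95% interval 0.12 to 1.95), with an unadjusted p of 0.032 and an adjusted p of 0.511 by edgeR. Without tumor 102 it was 0.59. Plasma cells also use Xbp1, and 9 plasma cell markers summed to 111 to 161 CPM in older and 212 to 289 CPM in younger tumors (4 of the 9 could be tested, 2 higher and 2 lower by sign). The lower sum came from Sdc1, which epithelial cells also express, and without it the sums were 39.9 to 56.3 CPM in older and 22.1 to 54.4 CPM in younger tumors. Pou2af1 and Cd79a, both under 5 CPM throughout, were also lower in older tumors without overlap. Jchain, the joining chain of secreted antibodies, Fkbp11 and Irf4 were higher without overlap, while Derl3 and Tnfrsf17 overlapped. Jchain was at 11.5, 3.73 and 20.3 CPM in older and 0.69, 2.99 and 0.47 CPM in younger tumors, while Mzb1 had no count outside tumor 116. Ighm, the antibody heavy chain mu gene, which is on none of the lists, was at 15.2, 20.6 and 23.4 CPM in older and 1.55, 2.99 and 2.37 CPM in younger tumors (log2 fold change 3.09, SE 0.41, edgeR adjusted p = 0.156). Jchain and Ighm were named after their values were seen, and neither passed the adjusted threshold (edgeR adjusted p = 0.343 for Jchain). Sdc1, Pou2af1 and Cd79a went the other way, so the plasma cell markers did not share a direction. The part of plasma cells in the Xbp1 level was not tested. Marker genes of milk-secreting alveolar cells, which have a large secretory apparatus, summed to 152522, 115826 and 38789 CPM in older tumors 102, 107 and 116 and to 25944, 167791 and 5555 CPM in younger tumors 157, 158 and 167, and their part in the Xbp1 level was not tested.

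Of the 8 luminal genes tested, Mlph had the smallest p by edgeR for a difference between the ages. It was at 19.8, 21.9 and 22.8 CPM in older tumors 102, 107 and 116 and at 42.3, 45.0 and 54.1 CPM in younger tumors 157, 158 and 167. The older tumors lay close together and well below all 3 younger tumors. The mean of 47.2 ± 6.21 CPM (SD, n = 3) in younger tumors was 2.19-fold higher than the 21.5 ± 1.57 CPM (SD, n = 3) of older tumors. The log2 fold change was -1.13 (SE 0.24, 95% interval -1.69 to -0.57), with an unadjusted p of 0.00174 and an adjusted p of 0.265 by edgeR. DESeq2, run as an alternative, gave an adjusted p of 0.00778 at the same log2 fold change of -1.13, and over all alternatives, edgeR and others, the adjusted p of Mlph ran from 0.00778 to 1. Unlike Foxa1 and Spdef, Mlph was as high in tumor 158 as in tumor 157.

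Greb1, a direct receptor target, was low in all tumors, at 2.64, 3.07 and 5.03 CPM in older tumors 102, 107 and 116 and at 9.46, 1.58 and 3.56 CPM in younger tumors 157, 158 and 167. The highest and the lowest values were both in younger tumors, the lowest resting on 9 reads in tumor 158. Greb1 had a log2 fold change of -0.43 (SE 0.68, edgeR adjusted p = 0.935), and it was 0.50 without tumor 157. Tumor 107, which had the highest Esr1 level, had 14 reads for Greb1. Agr2 was at or near the floor, with 10, 1 and 3 reads in older tumors 102, 107 and 116 and 1, 4 and 5 reads in younger tumors 157, 158 and 167. Only tumors 102, 158 and 167 exceeded 3 reads, at 3.30, 0.704 and 1.19 CPM, and no fold change is given.

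Of the 8 genes tested, 6 had lower and 2 (Xbp1 and Tfap2c) had higher point estimates in older tumors, and the median log2 fold change was -0.47, against -0.0031 over all genes tested. By edgeR's test, 0 of the 8 passed an adjusted p of 0.05 and 4 (Mlph, Spdef, Xbp1 and Foxa1) had an unadjusted p under 0.05, as did 8.55% of all genes tested. That count was 1 without tumor 102, without tumor 157 or without tumor 167, 2 without tumor 116 and 5 without tumor 107. Over all genes the same count was 1044, 843, 1212, 1528 and 1224 in those refits in that order, against 1202 with all tumors. Each refit filtered the genes anew, and no share is given for it. Mlph and Xbp1 were the 2 genes whose groups did not overlap, which held for 12.2% of all genes (5.58% lower, as Mlph, and 6.58% higher, as Xbp1). This count was 6 without tumor 107 and 4 without tumor 158, but leaving out a tumor makes overlap less likely for any gene. No share over all genes is given for those counts. With DESeq2, 1 of the 8 genes (Mlph) was called at an adjusted p of 0.05, where 2.47% of all genes were. Tumor 102 had the lowest level of 5 of the 8 genes (Esr1, Foxa1, Gata3, Spdef and Mlph) and the highest of Xbp1 and Tfap2c.

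**Figure D2:**
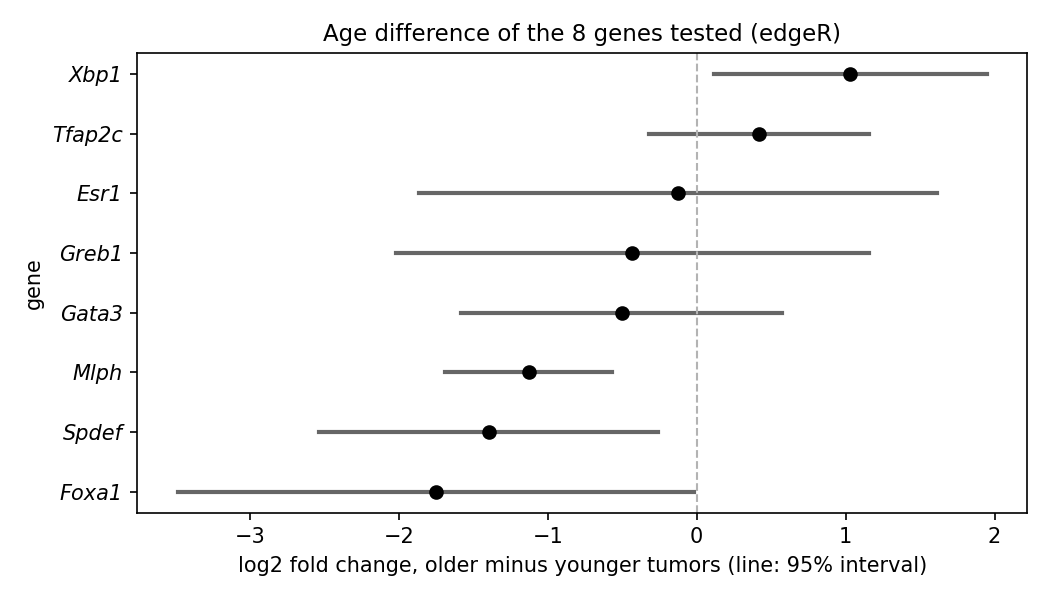
Log2 fold change of the 8 luminal genes tested, older minus younger tumors, with the point at the edgeR estimate and the line over its 95% interval. The estimates run from -1.75 for Foxa1 to 1.03 for Xbp1, and the intervals of Foxa1, Spdef, Mlph and Xbp1 leave out 0 before adjustment over all genes.

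Epithelial markers also had lower point estimates in older tumors, and the luminal genes were therefore also given relative to them. The mean log2 CPM of the 9 epithelial markers was 7.32 ± 0.16 (SD, n = 3) in older and 7.65 ± 0.040 (SD, n = 3) in younger tumors, a difference of -0.33 (p = 0.1 in a two-sided exact permutation test, which cannot give less with 3 tumors a group). All 9 markers had a negative log2 fold change. After this mean was subtracted from each gene's log2 CPM, Mlph was lower by 0.78 and Xbp1 higher by 1.31 in older tumors, both still without overlap between the groups (exact permutation p = 0.1 for each). Tfap2c was 0.69 higher and on this scale did not overlap either (exact permutation p = 0.1). The subtracted mean was lower in every older tumor, so subtraction raises any gene there relative to the younger tumors. No share of all genes without overlap is given on this scale. The differences on this scale were -1.57 for Foxa1, -0.84 for Spdef, -0.36 for Esr1, -0.30 for Gata3 and 0.19 for Greb1, all with overlapping groups, and none is given for Agr2. Several of these values rested on single tumors. The Esr1 difference was 0.63 and the Foxa1 difference -0.77 without tumor 102. Leaving out each tumor in turn, Gata3 ran from -0.86 (without tumor 107) to -0.00082 (without tumor 116) and Spdef from -1.42 (without tumor 158) to -0.54 (without tumor 167), while Mlph ran from -0.87 to -0.68, Xbp1 from 0.95 to 1.62 and Tfap2c from 0.38 to 0.87. The epithelial mean was instead a covariate in another edgeR fit. This mean ran from 7.17 to 7.49 in older and from 7.61 to 7.69 in younger tumors, so the covariate was largely aligned with age. That fit can hardly tell age from epithelial level, and the part of epithelial content in the age differences was not tested. In that fit 0 of the 8 genes had an unadjusted p under 0.05. Over all genes 1.94% did, against 8.55% without the covariate, so small p-values became rarer for genes in general. With the covariate, the 4 genes with an unadjusted p under 0.05 without it had estimates of -1.07 (Mlph), -1.35 (Spdef), -2.10 (Foxa1) and 0.42 (Xbp1). Those of Esr1 and Gata3 were -1.20 and -1.78.

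Other cell types differed between the tumors too. Macrophage markers summed to 514 to 1148 CPM in older and 130 to 285 CPM in younger tumors, with all 8 of those tested higher by sign in older tumors and 5 of the 8 at an unadjusted p under 0.05 by edgeR, where 5.28% of all genes were higher at that p. Markers of fibroblasts, which can express Esr1, summed to 1402, 187 and 637 CPM in older tumors 102, 107 and 116 and to 1110, 1060 and 162 CPM in younger tumors 157, 158 and 167, so the tumor with the least Esr1 had the highest fibroblast level. Tumor 102 also had the highest adipocyte marker sum, at 289 CPM against 31.6 to 64.3 CPM in the other tumors, and the lowest sum of basal markers, at 488 CPM against 857 to 2923 CPM. The part of these cells in the luminal levels was not tested.

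Gene by gene across the tumors, the receptor and its partner factors tended to be high and low in the same tumors, and Tfap2c in the others, though no pair passed the adjusted threshold. Pearson's r of log2 CPM was 0.85 for Esr1 with Foxa1 (permutation p = 0.0306) with Spearman's rho of 0.77 (p = 0.103). It was 0.80 for Esr1 with Gata3 (permutation p = 0.0167, rho 0.77, p = 0.103) and 0.85 for Foxa1 with Gata3 (permutation p = 0.0222, rho 0.83, p = 0.0583). For Esr1 with Tfap2c it was -0.95 (permutation p = 0.0139, rho -0.77, p = 0.103) and for Foxa1 with Xbp1 it was -0.90 (permutation p = 0.0236, rho -0.77, p = 0.103). The permutations ran over all pairings of the 6 tumors. All 5 of these pairs had a Benjamini-Hochberg adjusted p of 0.157 for r and 0.285 for rho over the 36 pairs of the 9 genes, and 0 of the 36 pairs fell below an adjusted p of 0.05.

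Without the 2 tumors farthest from the median of the first gene, r was 0.91 for Esr1 with Foxa1, 0.71 for Esr1 with Gata3, 0.80 for Foxa1 with Gata3, -0.66 for Esr1 with Tfap2c and -0.79 for Foxa1 with Xbp1. For Foxa1 with Tfap2c it moved from -0.84 to -0.086, so that relation rested on tumors 102 and 167. For Gata3 with Tfap2c it moved from -0.78 (rho -0.60, permutation p = 0.242 for rho) to -0.27 without tumors 102 and 116. For Esr1 with Tfap2c, r over all 6 tumors was -0.73 when scaled by library totals and -0.76 relative to the epithelial markers. Leaving out tumor 102 alone gave 0.49 for Esr1 with Foxa1, 0.76 for Foxa1 with Gata3, -0.79 for Esr1 with Tfap2c and -0.71 for Foxa1 with Xbp1 (permutation, adjusted p = 0.758 for each). It left 1 of the 36 pairs with an unadjusted permutation p under 0.05, against 9 with all tumors. Esr1 with Xbp1 gave an r of -0.69 (permutation p = 0.156, adjusted p = 0.283, rho -0.31, p = 0.564). Esr1 and its target Greb1 gave an r of 0.31 (permutation p = 0.536, adjusted p = 0.603). The levels of Spdef fell into separate clusters, with tumors 157 and 167 in 1 and the other 4 tumors in the other, as did those of Mlph by age, and no pooled r is given for these genes. Foxa1 and Spdef nonetheless ranked the 6 tumors identically (Spearman's rho 1, permutation p = 0.00278, adjusted p = 0.1). Within age, with each gene centred on its age means, r was 0.92 for Esr1 with Foxa1 (exact permutation within age, p = 0.0278, adjusted p = 0.333) and -0.96 for Esr1 with Tfap2c (p = 0.0556, adjusted p = 0.4, same exact test). It was 0.79 for Esr1 with Gata3, 0.80 for Foxa1 with Gata3 and -0.80 for Foxa1 with Xbp1, with exact permutation p of 0.25, 0.167 and 0.167. The 36 arrangements of the tumors within age cannot give a p below 0.0278.

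**Figure D3:**
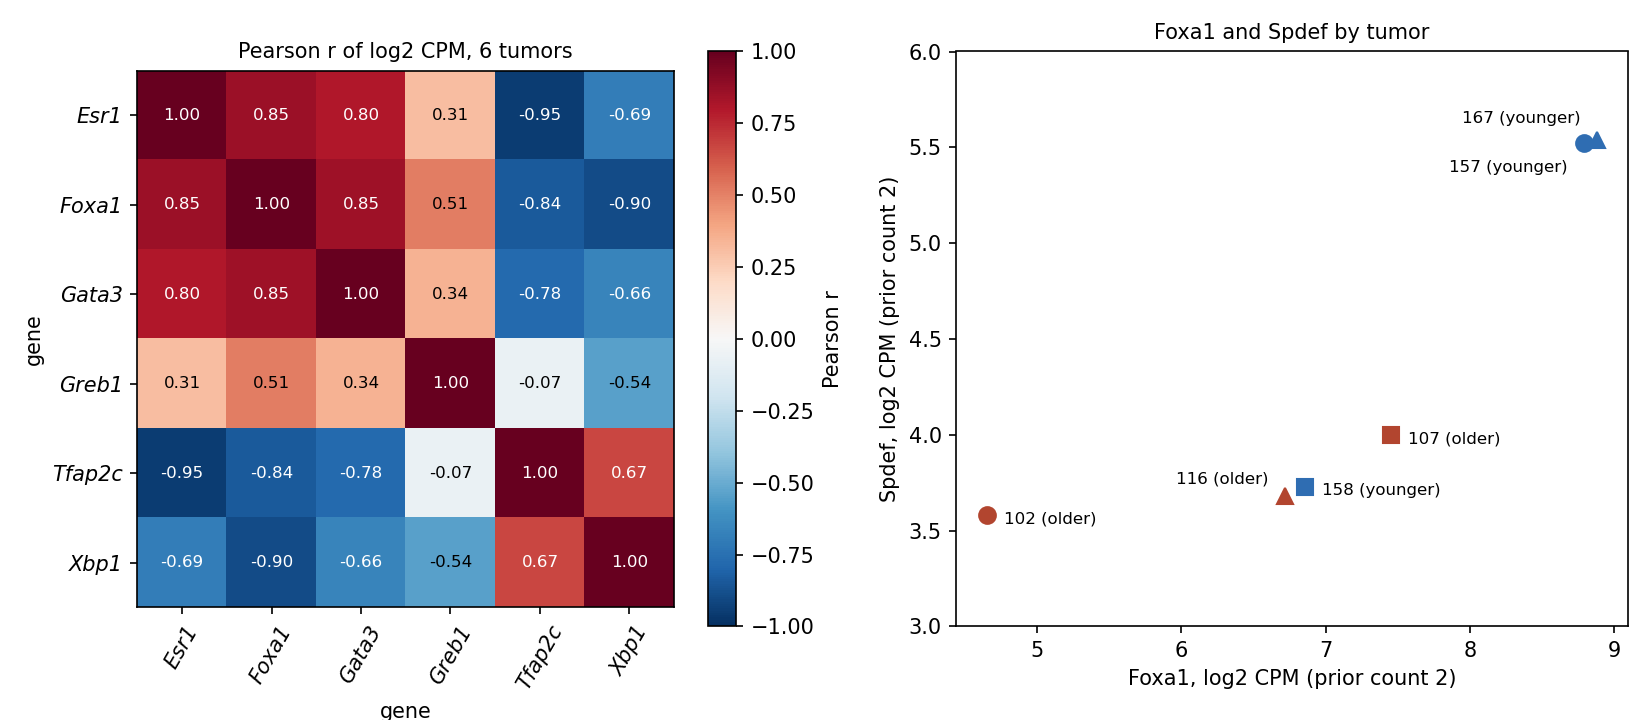
Left, Pearson's r of log2 CPM over the 6 tumors for 6 of the luminal genes, from -1 (blue) to 1 (red), with Esr1, Foxa1 and Gata3 at 0.80 to 0.85 with each other and at -0.78 to -0.95 with Tfap2c. Right, log2 CPM of Foxa1 and Spdef in each tumor, where tumors 157 and 167 stand apart in Spdef and younger tumor 158 lies beside older tumor 116.

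The genes whose pattern was most like that of Esr1, among 11740 named genes with a mean of at least 5 CPM, were Ptges3l, Ift81 and Itgb1, with r of 0.996, 0.996 and 0.993 over the 6 tumors. Ift81 encodes a subunit of the intraflagellar transport complex of cilia and Itgb1 encodes integrin beta 1. Ptges3l was at 1.65, 13.4 and 7.16 CPM in older tumors 102, 107 and 116 and at 9.63, 5.80 and 12.6 CPM in younger tumors 157, 158 and 167. Itgb1 repeated the same order over a much narrower range, from 299 CPM in tumor 102 to 389 CPM in tumor 107. In all, 65 genes had an r above 0.95 with Esr1, and with 6 tumors this is a description of likeness only.

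Other genes induced by estrogen through the receptor were read from a list of 26, of which 23 could be tested. They did not move in 1 direction, with 13 higher and 10 lower in older tumors by sign and a median log2 fold change of 0.083. By edgeR's test 0 passed an adjusted p of 0.05, while 2 higher and 3 lower genes had an unadjusted p under 0.05, against 5.28% and 3.26% of all genes. Car12, a carbonic anhydrase, was at 18.1, 5.49 and 23.6 CPM in older tumors 102, 107 and 116 and at 284, 500 and 46.5 CPM in younger tumors 157, 158 and 167. All 3 older tumors were below all 3 younger ones (log2 fold change -4.14, SE 0.91, edgeR adjusted p = 0.265). Stc2, a secreted glycoprotein, was at 4.95, 2.41 and 13.0 CPM in the older and 64.8, 17.9 and 42.5 CPM in the younger tumors in the same order. It too separated the groups (log2 fold change -2.60, SE 0.69, edgeR adjusted p = 0.336).

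In the opposite direction, the survival factor Bcl2 was at 77.5, 40.2 and 65.4 CPM in older and 25.1, 11.4 and 28.0 CPM in younger tumors (log2 fold change 1.50, SE 0.41, edgeR adjusted p = 0.342). The growth factor receptor Igf1r was at 96.7, 40.2 and 80.1 CPM in older and 17.0, 5.28 and 26.6 CPM in younger tumors (log2 fold change 2.15, SE 0.59, edgeR adjusted p = 0.343). Both separated the ages without overlap. For both genes older tumor 107, with the highest Esr1 level, was the lowest of its group. Of the 23 targets tested, 2 were higher without overlap (Bcl2 and Igf1r), where 6.58% of all genes were. Another 2 were lower without overlap (Car12 and Stc2), where 5.58% of all genes were. Of the 5 targets with an unadjusted p under 0.05, the remaining gene, the receptor coactivator Cited1, was picked for its values, with 12.9, 12.9 and 125 CPM in older and 407, 123 and 691 CPM in younger tumors (log2 fold change -3.00, SE 1.03, edgeR adjusted p = 0.441). Like Foxa1 and Spdef it was highest in tumors 157 and 167. Pgr, the progesterone receptor and the most used readout of receptor activity, was also named with its values known. It was at 44.9, 370 and 87.7 CPM in older and 114, 26.4 and 109 CPM in younger tumors (log2 fold change 1.01, SE 0.82, edgeR adjusted p = 0.842), with its highest level in the tumor of highest Esr1.

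Of 24 coregulators of the receptor (coactivators, corepressors and related receptors), 21 were tested, 15 higher and 6 lower by sign, with a median log2 fold change of 0.098. In edgeR's test 0 had an unadjusted or adjusted p under 0.05, where 8.55% of all genes had an unadjusted p under 0.05. The abundant chaperone Hsp90ab1, which holds the unliganded receptor, had a log2 fold change of -0.30 (SE 0.33, edgeR adjusted p = 0.902) and the RNA helicase coactivator Ddx5 one of 0.053 (SE 0.26, edgeR adjusted p = 0.980). Ddx5 ranged only from 572 to 744 CPM over the 6 tumors. Esrrb, an estrogen-related receptor that is not on the list and is named for its values, was at 3.63, 50.5 and 8.52 CPM in older and 1.38, 0.70 and 0.24 CPM in younger tumors. Its groups did not overlap (edgeR adjusted p = 0.308), but because it was picked for its values this was no test. The younger values of tumors 158 and 167 lie near or under the floor, and no fold change is given.

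Among 27 other transcription and splicing factors of the luminal lineage, all tested, 12 were higher and 15 lower by sign in older tumors, with a median log2 fold change of -0.056. By edgeR's test 0 passed an adjusted p of 0.05 and 4 had an unadjusted p under 0.05, against 8.55% of all genes. The count of 4 became 2 without tumor 157 or without tumor 167, where 843 and 1212 of all genes had such a p, against 1202 with all tumors. Klf5, a factor of epithelial growth, was at 42.9, 23.3 and 29.2 CPM in older tumors 102, 107 and 116 and 65.5, 56.5 and 47.0 CPM in younger tumors 157, 158 and 167 (log2 fold change -0.83, SE 0.30, edgeR adjusted p = 0.483). Msx2, a homeobox factor of mammary development, was at 0, 1.10 and 2.13 CPM in older and 11.9, 3.17 and 12.3 CPM in younger tumors, again highest in tumors 157 and 167 (edgeR adjusted p = 0.378). These 2 genes and Grhl2, an epithelial factor at 73.7 to 81.1 CPM in older and 94.8 to 115 CPM in younger tumors, were lower in older tumors without overlap, 3 of the 27 where 5.58% of all genes were, and 0 of the 27 were higher without overlap. Msx2 had 0 CPM in tumor 102 and its other older levels lay near the floor. Its lack of overlap and its p therefore add little to these counts, and no fold change is given for it. Stat5b, which carries prolactin signals, had a log2 fold change of 0.78 (SE 0.33, edgeR adjusted p = 0.573), with overlapping groups.

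Of 12 relatives of the luminal genes within their own families, 5 had enough counts to be tested, and 1 had an unadjusted p under 0.05 by edgeR, against 8.55% of all genes. This was Tfap2b, the AP-2 beta gene, at 13.5, 83.8 and 113 CPM in older tumors 102, 107 and 116 and 360, 151 and 375 CPM in younger tumors 157, 158 and 167 (log2 fold change -2.07, SE 0.71, edgeR adjusted p = 0.442). Its groups did not overlap, and 5.58% of all genes were likewise lower in older tumors without overlap. The order of Tfap2b followed that of Foxa1 at the top, with tumors 157 and 167 highest and tumor 102 lowest, whereas its relative Tfap2c was highest in tumor 102. Esr2, the gene of estrogen receptor beta, was too low to test, with 8.62 CPM in tumor 158 and 0 to 1.32 CPM elsewhere.

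The partners of Mlph and the targets of Xbp1 were read as the nearest pathway genes of the 2 members that separated the ages. Of 11 melanophilin partners and RAB27 effectors tested, 7 were lower and 4 higher by sign (median log2 fold change -0.15), and 3 were lower without overlap, where 5.58% of all genes were. Rab27b, a vesicle GTPase of the kind that melanophilin binds, was at 0.99, 2.63 and 2.90 CPM in older and 9.80, 5.28 and 20.2 CPM in younger tumors (log2 fold change -2.38, SE 0.64, unadjusted p = 0.00652, adjusted p = 0.342, edgeR). Its level in tumor 102 lay at the floor, and without that tumor the log2 fold change was -2.06. The others without overlap were Myrip, under the floor in tumor 107 at 0.439 CPM, and Sytl1. Sytl1 barely separated the groups, at up to 38.13 CPM in older and from 38.16 CPM in younger tumors. The count of 3 is thus limited by low levels and by a narrow gap. Of 14 tested genes induced by spliced XBP1 or encoding its activating kinases, 7 were higher and 7 lower by sign in older tumors (median log2 fold change 0.0041). By edgeR's test 0 of these had an unadjusted or adjusted p under 0.05, where 8.55% of all genes had an unadjusted p under 0.05. Of the 14, 2 were higher in older tumors without overlap, as 6.58% of all genes were, and 0 were lower. These were Herpud1, at 54.4 to 58.2 CPM in older and 35.9 to 47.3 CPM in younger tumors (log2 fold change 0.48, SE 0.23, edgeR adjusted p = 0.651), and Edem1, at 151 to 203 CPM and 123 to 146 CPM (log2 fold change 0.36, SE 0.23, edgeR adjusted p = 0.769), both acting in the disposal of misfolded proteins. Hspa5, the chaperone BiP, had a log2 fold change of -0.44 (SE 0.47, edgeR adjusted p = 0.895), which was -0.0068 without tumor 158, -0.18 without tumor 102 and -0.78 without tumor 167, and Pdia6 one of 0.040 (SE 0.29, edgeR adjusted p = 0.986), and the groups overlapped for both. Gene counts do not separate spliced from unspliced Xbp1 RNA.

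**Figure D4:**
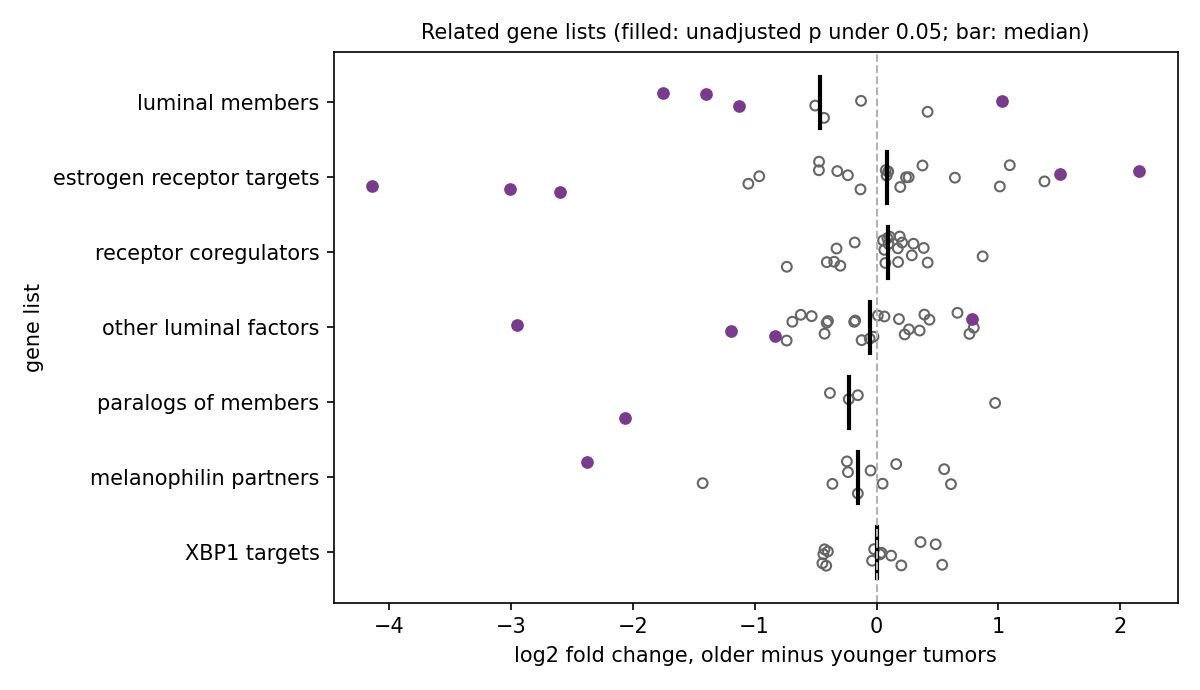
Log2 fold change, older minus younger tumors, of every tested gene in the luminal set and in the 6 related lists, with filled points at an unadjusted p under 0.05 and bars at the medians. The medians lie between -0.47 for the luminal genes and 0.098 for the receptor coregulators, and the estrogen receptor targets spread to both sides of 0, down to -4.14 for Car12.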

How the data were processed

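Bulk RNA-seq was measured in 6 rat mammary tumors, 3 older and 3 younger. The authors trimmed reads with Trimmomatic 0.38, aligned them with STAR 2.7.9a, marked duplicates with Picard 2.18.12, counted with HTSeq 0.13.5 and deposited a raw read count per gene and tumor. The submitters' processing notes name the build mRatBN7.2, and the strand setting and annotation were not given in the sources used here. 0 columns were left unused. Rows without a gene name (4367) were kept in the tests.

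The main test was that of edgeR 4.0.16 in R 4.3.3 (filterByExpr, TMM, quasi-likelihood test, no covariates, Benjamini-Hochberg adjustment, threshold 0.05). Log2 CPM used a prior count of 2. SEs were calculated back from the F statistic. The statistics were tested on simulated data. Alternatives were scaling by library totals or by the size factors of DESeq2, the Wald test of DESeq2 1.42.0, voom in limma 3.58.1, other low-count filters, leaving out the 10 most abundant genes, an epithelial covariate, a prior count of 0.5 and leaving out each tumor. Correlations within age were added after the data had been seen.

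The members and related lists were chosen with earlier results of these data known. All 9 genes were named, and from each list the genes with an unadjusted p under 0.05, at most 4 by p, or otherwise the 2 with the highest mean CPM. Pgr, Cited1, Grhl2, Herpud1, Edem1, Esrrb, Ighm, Myrip, Sytl1 and the plasma cell and T cell markers were named after their values were seen. The values of 1 gene that this rule names are not reported here.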

Additional observations from a re-analysis of the deposited data

How the results depend on the processing

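Of 376 alternative values, 358 kept their direction and side of the threshold or stayed close to the reported value. With the Wald test of DESeq2, 346 genes and 1 luminal gene (Mlph, log2 fold change -1.13) were called where edgeR called 0, and with all genes of at least 1 count edgeR called 1 gene. Leaving out each tumor gave 0 calls throughout. The log2 fold change of Greb1 was 0.96 with the epithelial covariate. Leaving out 1 tumor at a time, it ran from -0.85 (without tumor 158) to 0.50 (without tumor 157), and that of Esr1 from -1.11 (without tumor 107) to 0.37 (without tumor 102), with 0.14 without tumor 167. Relative to the epithelial markers, the same ranges were -1.24 to 0.63 for Esr1 (without tumors 107 and 102) and -0.34 to 0.77 for Greb1 (158 and 157). They were also 2 to 6 luminal genes without overlap, 5 to 6 receptor targets and 2 to 6 other luminal factors with an unadjusted p under 0.05. For all genes the count at that p ran from 843 (without tumor 157) to 1528 (without tumor 116), and no share is given. Leaving out a tumor makes overlap less likely for any gene. The related genes were refitted in this way after the data had been seen. Ddx5 ran from -0.045 (without tumor 107) to 0.13 and Pdia6 from -0.15 (without tumor 167) to 0.26, with Ddx5 also negative without tumor 157 and Pdia6 without tumor 116. The cause of these shifts was not tested. Greb1 gave no value with a filter of at least 10 counts in every tumor. No paired analysis was possible because older and younger tumors came from different rats and share no replicate number. The 3 tumors per age and the low counts of Greb1 and Agr2 limit what can be resolved.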
